A study of Homo sapiens with 6 samples.

Results

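The gene expression of A549 cells treated with 5 ng/mL TGF-β1 was compared with that of A549 cells treated with 1 ng/mL TGF-β1, both for 48 h. All 25737 gene entries of the deposited count tables were compared, and 6467 of them reached the minimum level for the comparison in at least 1 of the 2 libraries. Of these 6467 genes, 104 were at least 2-fold higher and 116 were at least 2-fold lower at 5 ng/mL. The genes that rose further between the doses included ANGPTL4, PDGFB, ITGA5 and IER3, whereas COL1A1, COL5A1, TAGLN and TGFBI, which had also risen at 1 ng/mL, stayed at the level reached there. The genes that fell further included the aldo-keto reductases AKR1B10, AKR1C1 and AKR1C2, the actin-binding proteins TMSB4X and PFN1, and the chemokine CXCL5.

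A549 is an established line of human lung carcinoma epithelial cells, labelled as wild type. Both treated cultures received TGF-β1 one day after seeding, in RPMI1640 with 1% serum, and both doses shared this medium. The A549 culture without TGF-β1 (0 ng/mL) is shown beside them, but its medium during those 48 h is not stated in the labels, so its difference from the treated cells can include a difference in serum. BEAS-2B, an established line of immortalized human bronchial epithelial cells, was treated with the same 2 doses in the same study. It provides the same step without sharing a library with the A549 step, although all 6 libraries were scaled together. With 1 library per condition, how much separate cultures vary was not measured, and no difference could be tested. In bulk RNA, fewer cells of a type and less RNA per cell cannot be told apart.

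The libraries were made with QuantSeq, a 3′-end method that reads the stretch next to the poly(A) tail. The A549 libraries held 7841350 counts at 1 ng/mL, 6101351 at 5 ng/mL and 4144476 at 0 ng/mL. Counts were scaled between libraries, and a normalized count below is a count at the common library size. To each normalized count 1 was added, and its log2 is called the ND value. The minimum level was an ND value of 7, a normalized count of 127. This corresponded to 185 counts at 1 ng/mL and 140 counts at 5 ng/mL. A range in parentheses after a fold difference is its exact 95% counting interval, which covers counting error only. Of 11 markers of a lung epithelial line, 3 reached the minimum level in the 2 treated libraries and 8 did not. Keratin genes of epithelial cells were among the 3, with normalized counts of 16906, 9228 and 8818 for KRT18 and 4024, 14155 and 17495 for KRT7 at 0, 1 and 5 ng/mL. The surfactant genes SFTPA1 and SFTPC were at 0 counts in all 3 libraries, and the epithelial cadherin CDH1 was at 742, 20.6 and 7.26. None of 10 fibroblast and smooth muscle markers, 8 endothelial markers and 10 leukocyte markers reached the minimum level in the 2 treated libraries. The summed normalized counts of these lists at 0, 1 and 5 ng/mL were 88.1, 179 and 83.5 for the fibroblast list, 3.48, 2.06 and 0.907 for the endothelial list, and 75.3, 26.8 and 25.4 for the leukocyte list. The endothelial markers VWF, CDH5 and KDR and the lymphocyte marker CD3E were at 0 in all 3.

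TGF-β1 is a secreted cytokine that binds the receptors TGFBR2 and TGFBR1, which phosphorylate SMAD2 and SMAD3. These enter the nucleus with SMAD4 and act on genes together with other factors, such as the AP-1 proteins of the JUN and FOS families. In epithelial cells the cytokine is known for epithelial-mesenchymal transition, in which cell junctions loosen and genes of the extracellular matrix (ECM) and of the contractile cytoskeleton are switched on, and for arrest of the cell cycle. Inhibitors such as SMAD7, SKIL and the SMURF ubiquitin ligases are themselves targets of the pathway and damp it. The step from 1 to 5 ng/mL sets the level of each gene at the higher dose beside that at the lower dose, in 1 library each.

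Most genes differed little between the doses. For 3684 genes (57%) the log2 difference between the doses was under 0.32, and the middle 50% of the log2 differences of 5 over 1 ng/mL lay between -0.26 and 0.28, with a median of 0.01. The 104 genes that were at least 2-fold higher were 1.61% of the genes compared, and the 116 genes that were at least 2-fold lower were 1.79%. At a limit of 1.5-fold, 543 genes (8.4%) were higher and 545 (8.43%) were lower. The counting interval excluded equality for each of the 220 genes past 2-fold, and it lay wholly past 2-fold for 50 of the higher and 48 of the lower genes. The number of genes near the 2-fold limit was large, with 868 genes between 1.5-fold and 2-fold apart. For example, VEGFA was just inside the limit at 2.01-fold, and THBS1, at 1.996-fold, was just outside it.

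**Figure D1:**
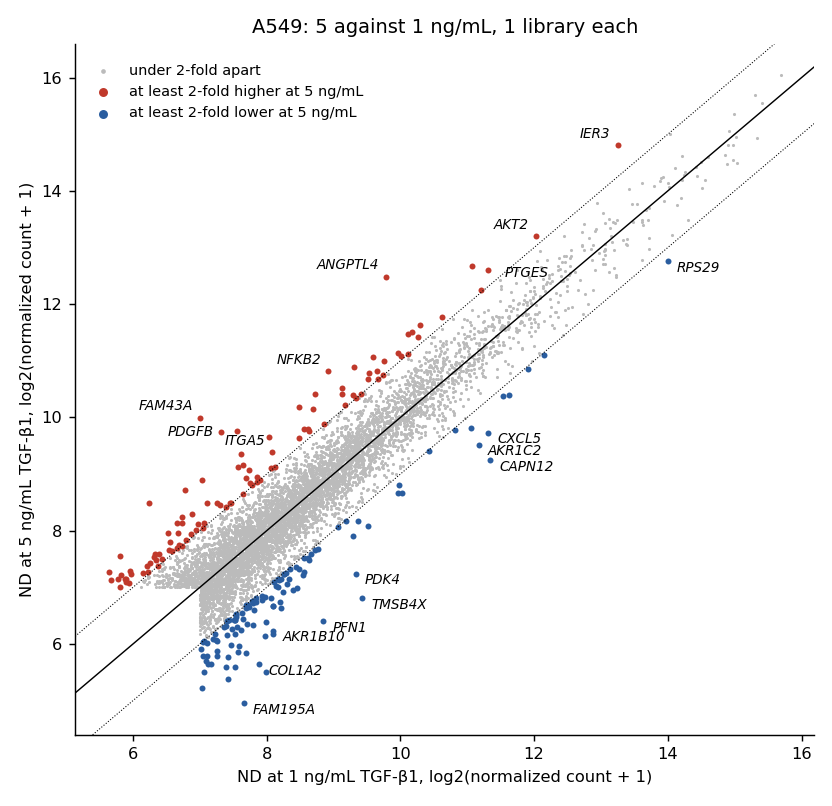
ND values of the 6467 genes at the minimum level in A549 cells at 1 ng/mL (horizontal axis) and at 5 ng/mL (vertical axis), 1 library each. The solid line marks equal values and the dotted lines 2-fold differences. The 104 red genes lie above the upper dotted line, up to ANGPTL4 and IER3 among the abundant ones, and the 116 blue genes lie below the lower one, where RPS29 is the most abundant.

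The step between the doses was set against the response to the lower dose. Among 7264 genes at the minimum level in at least 1 of the 3 A549 libraries, 827 (11.4%) were at least 2-fold higher and 883 (12.2%) at least 2-fold lower at 1 than at 0 ng/mL. Of the 827 genes that had risen, 143 (17.3%) were at least 1.5-fold higher again at 5 ng/mL and are called kept rising, 414 (50.1%) were within 0.32 of their value at 1 ng/mL on the log2 scale and are called level, and 58 (7.01%) were at least 1.5-fold lower and are called turned back. A further 138 moved up and 74 moved down by less than 1.5-fold without being level. Of the 883 genes that had fallen, 313 (35.4%) kept falling, 302 (34.2%) were level and 48 (5.44%) turned back, with 173 and 47 between these classes. Among the 5554 genes that were under 2-fold apart at 1 ng/mL, 6.72% were at least 1.5-fold higher and 7.78% at least 1.5-fold lower at 5 ng/mL. The median log2 difference of 5 over 1 ng/mL was 0.14 for the genes that had risen, -0.39 for those that had fallen and 0.00 for the others. The library at 1 ng/mL enters both steps, so an error in it alone pushes a gene toward turning back, and the shares of the classes carry that error. Genes that had fallen were often near the detection limit at both doses, and the counting interval of 5 over 1 ng/mL included equality for 21 of the 313 that kept falling. Such genes could meet the minimum level through the library at 0 ng/mL alone, so the shares after a rise and after a fall are not alike. With the minimum required in every library compared, 51 genes kept falling. The counts of the other classes under that setting are given with the processing settings below, and the shares after a rise and after a fall were not compared there.

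**Figure D2:**
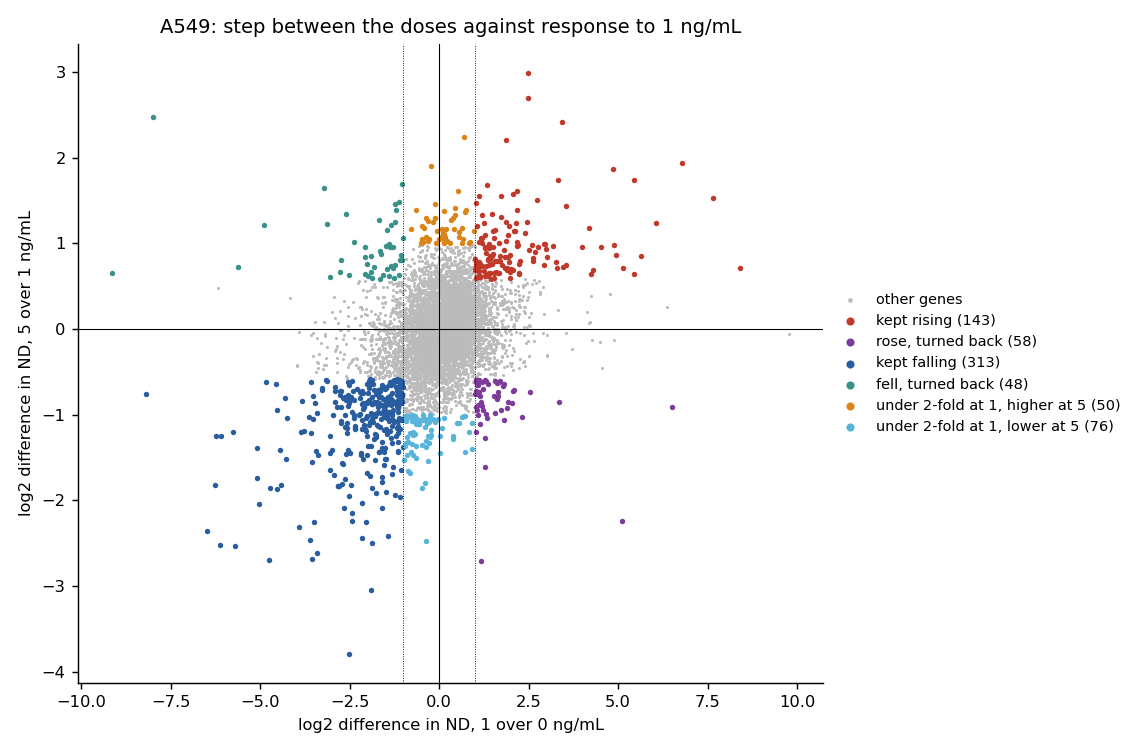
Log2 difference of 5 over 1 ng/mL (vertical axis) against that of 1 over 0 ng/mL (horizontal axis) for 7264 genes of A549 cells, with the number of genes in each class. Dotted lines mark the 2-fold response to 1 ng/mL. The genes that kept falling (blue, 313) and kept rising (red, 143) outnumber those that turned back (58 after a rise and 48 after a fall).

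The genes that rose at both steps with large ratios included those of a secreted inhibitor and a growth factor. ANGPTL4, an inhibitor of lipoprotein lipase, had normalized counts of 156, 881 and 5736 at 0, 1 and 5 ng/mL, so that most of its final level was added at the second step, which was 6.51-fold (6.13 to 6.92). The B chain of platelet-derived growth factor, PDGFB, a mitogen of mesenchymal cells, was at 13.9, 159 and 854 and rose 5.38-fold (4.65 to 6.24) between the doses. The largest ratio among the 6467 genes belonged to FAM43A, at 22.0, 128 and 1021, with 7.99-fold (6.83 to 9.38). In these 3 genes each dose lay far above the one before it, and the second step was as steep as the first for ANGPTL4 and FAM43A, whose log2 differences were 2.49 and 2.48 at the first step and 2.70 and 2.99 at the second.

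Subunits for attachment to the matrix rose further as well. ITGA5, the α5 chain of the fibronectin receptor, was at 81.1, 271 and 671, a step of 2.48-fold (2.19 to 2.81). ITGA11, the chain of a collagen receptor, was at 4.63, 164 and 324, 1.97-fold apart between the doses. ITGA2, another collagen receptor chain, was at 228, 338 and 622 and gained most of its rise at the second step, 1.84-fold. The abundant ITGB1, the common β chain, was at 4992, 7433 and 7044, nearly equal at both doses. In all, 3 of 9 integrin genes at the minimum level were at least 1.5-fold higher and 0 were lower, against 8.4% and 8.43% of all genes compared, the shares to set beside each list count at this limit. FERMT1, which couples integrins to the cytoskeleton, was at 380, 771 and 2133 and rose 2.77-fold (2.58 to 2.97).

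Among 9 genes of matrix proteases and their inhibitors, 5 (55.6%) were at least 1.5-fold higher and 2 (22.2%) at least 1.5-fold lower at 5 ng/mL, against 8.4% and 8.43% of all genes, with a median log2 difference of 0.64. The inhibitors of metalloproteinases TIMP2 and TIMP3 were at 979, 7902 and 14169.7 and at 3.48, 70.1 and 137, differences of 1.79-fold and 1.96-fold. MMP2, a gelatinase, was at 10.4, 493 and 769, and its step between the doses was 1.56-fold (1.41 to 1.73) after a far larger rise at 1 ng/mL. In contrast, PLAUR, the receptor of urokinase, was at 633, 939.9 and 515, higher at 1 ng/mL than at either other dose. The cytokine IL11, known from fibrotic tissue, was at 364, 2884 and 5494, and CTGF, a matricellular protein and target of TGF-β and YAP, was at 83.4, 359 and 792, 1.91-fold and 2.21-fold higher at 5 than at 1 ng/mL.

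The remaining large rises belonged to regulators and to a few genes of other kinds. IER3, an early response gene that protects from apoptosis, was the most abundant gene past 2-fold, at 2956, 9748 and 28562, with 2.93-fold (2.87 to 2.99). NUAK1, a kinase related to AMPK, was at 149.5, 632 and 1888, and FHOD1, a formin that bundles actin filaments, was at 549.2, 1253 and 3157. FOXO1, a transcription factor restrained by AKT, was at 86.9, 188 and 556, and WNT5B, a WNT ligand, at 15.1, 106 and 301. PCDH1, a protocadherin of airway epithelium, was at 51.0, 187 and 865, 4.63-fold (4.04 to 5.31) apart between the doses. Genes of the late cornified envelope of skin, LCE3D and LCE3E, were at 0, 199 and 573 and at 0, 109 and 420.1; they are close copies of each other, so the split of reads between them is uncertain. KANK4, VSTM4, DYSF and NAV2 also rose at both steps, by 3.22-fold to 3.67-fold between the doses.

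**Figure D3:**
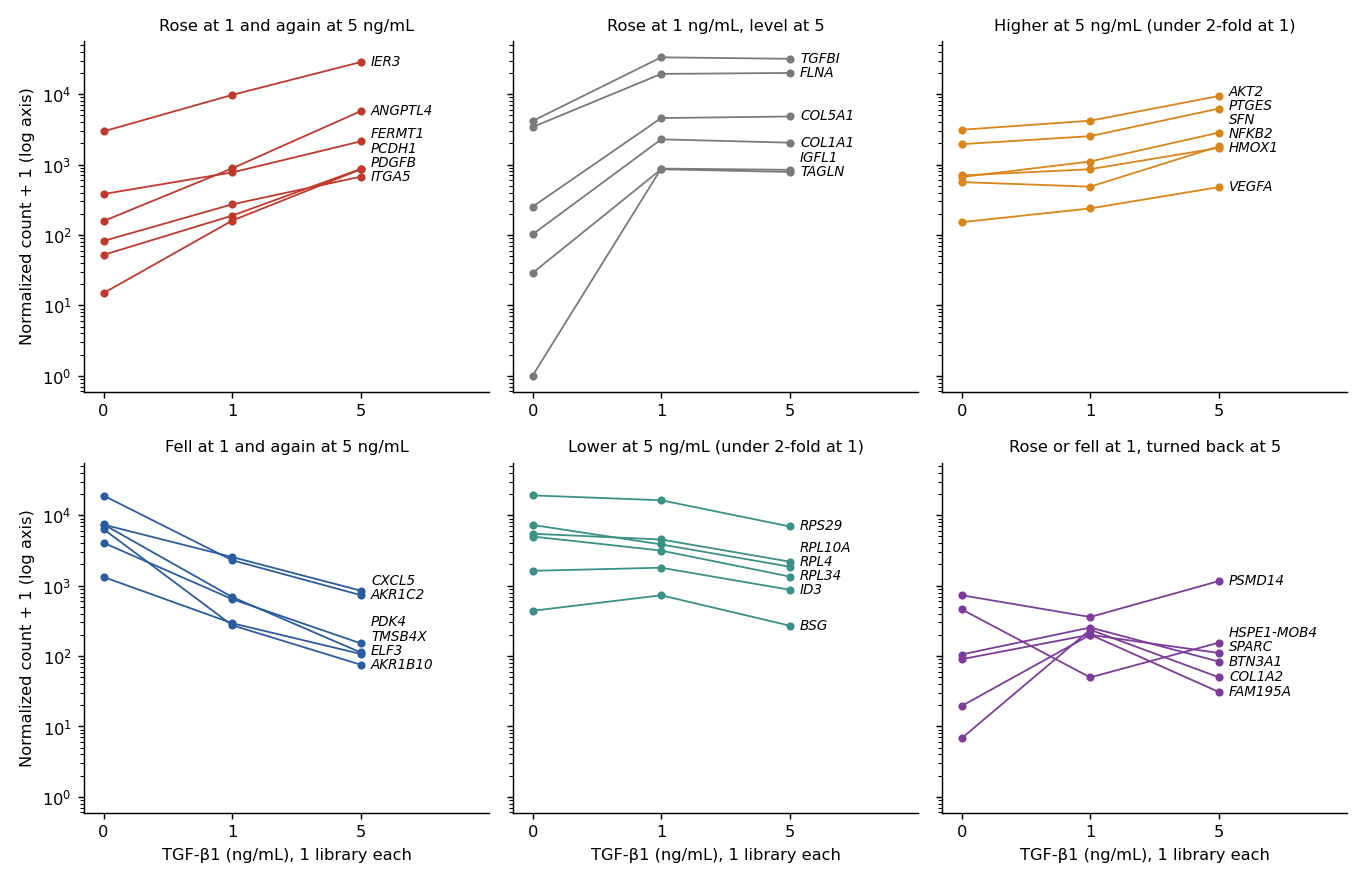
Normalized counts plus 1 (logarithmic axis) of 36 genes in the 3 A549 libraries, by TGF-β1 dose (ng/mL), in 6 panels by their pattern. Each line is 1 gene. ANGPTL4 and PDGFB keep rising, COL1A1 and TAGLN are level after 1 ng/mL, NFKB2 and PTGES are higher at 5 ng/mL with little difference at 1, AKR1B10 and TMSB4X keep falling, RPS29 and ID3 are lower at 5 ng/mL, and COL1A2 and FAM195A turn back.

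Several structural genes of the fibrotic response were level between the doses. COL1A1, the α1 chain of type I collagen, was at 101, 2278 and 2043, a large rise at 1 ng/mL followed by a value 1.11-fold (1.06 to 1.18) lower at 5 ng/mL. COL5A1, the α1 chain of type V collagen, was at 250.3, 4571 and 4812, and TGFBI, an abundant matrix protein induced by TGF-β, at 4154, 33358 and 31744. The actin-binding proteins TAGLN and FLNA were at 27.8, 855 and 783 and at 3402, 19379 and 20002. IGFL1, a secreted ligand of the IGF-like family, went from 0 to 874 at 1 ng/mL and stood at 840 at 5 ng/mL. These 6 genes were level by the same measure, and each was more than 5-fold above its value at 0 ng/mL or, for IGFL1, detected only in the treated cells.

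The study had chosen 8 core genes of the response from these same samples, the library at 5 ng/mL included. Neither their direction against 0 ng/mL nor their step between the doses is therefore independent evidence. All 8 reached the minimum level, and 3 were at least 1.5-fold higher at 5 than at 1 ng/mL, namely ITGA5, THBS1 and MMP2. THBS1, which encodes thrombospondin 1, was at 62.6, 493 and 984. Fibronectin, FN1, was at 6324, 15121 and 18442, 1.22-fold (1.2 to 1.24) higher at the second step. The chains of type IV collagen COL4A1 and COL4A2 were at 235, 1342 and 1477 and at 621, 3873 and 5733. Their ratios of 1.1-fold and 1.48-fold differed although both had risen strongly at 1 ng/mL. Over the 8 genes, the median log2 difference was 0.43, against -0.02 for BEAS-2B cells.

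Type I collagen chains went apart between the doses. While COL1A1 was level, COL1A2, the α2 chain, was at 5.79, 236 and 48.99 and turned back 4.81-fold (3.6 to 6.53). The other collagen chains spread between these patterns: COL27A1, a fibrillar collagen of cartilage, kept rising at 256, 624 and 1339, and COL22A1, at 0, 337 and 552, was 1.64-fold higher at 5 than at 1 ng/mL. Of 13 collagen genes at the minimum level, 2 were at least 1.5-fold higher and 1 was at least 1.5-fold lower. SPARC, a collagen-binding matrix protein, and FBN1, the main protein of microfibrils, also turned back, with 18.5, 199 and 109.8 and 49.8, 130.5 and 83.5. IGFBP5, a carrier of insulin-like growth factors, was at 2.32, 304 and 162. Of the list of 10 fibroblast and smooth muscle markers, none reached the minimum level at 1 or 5 ng/mL. The largest count of any of them in these 2 libraries was 74 before scaling. Normalized counts of the whole list summed to 88.1, 179 and 83.5 at 0, 1 and 5 ng/mL. The list is not shown gene by gene. The part of fibroblast markers in the values of COL1A2, SPARC, FBN1 and IGFBP5 was not tested.

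Other genes that turned back after a rise were of mixed function. The largest fall in ratio among the 6467 genes belonged to FAM195A, at 89.2, 201 and 29.9, with 6.7-fold (4.67 to 9.92). BTN3A1, a butyrophilin that presents phosphoantigens to γδ T cells, was at 104, 254 and 82.6, and MVD, an enzyme of the mevalonate pathway, at 74.2, 151 and 65.3. Of the 58 genes that turned back after a rise, 31 returned to within 1.5-fold of their value at 0 ng/mL and 3 were below it. The 48 genes that turned back after a fall included PSMD14, a deubiquitinase of the proteasome lid, at 731, 358 and 1162. It also included HSPE1-MOB4 and PABPC3, at 461, 48.8 and 154 and 978, 414 and 1136, a readthrough gene and a retrocopy that share sequence with other genes, so that their values are uncertain. Of these 48 genes, 18 returned to within 1.5-fold of 0 ng/mL and 6 were above it.

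For 50 genes the level was at least 2-fold higher at 5 than at 1 ng/mL, with under 2-fold between 0 and 1 ng/mL. At 5 ng/mL, 35 of the 50 were at least 2-fold above 0 ng/mL, and 6 were within 1.5-fold of it. NFKB2, which encodes the p100/p52 subunit of the alternative NF-κB pathway, was at 562, 484 and 1807, 3.74-fold (3.43 to 4.08) higher at 5 than at 1 ng/mL while 0 and 1 ng/mL differed little. PTGES, the synthase of prostaglandin E2, was at 1943, 2528 and 6228, and its step was 2.46-fold (2.37 to 2.56). AKT2, a kinase downstream of PI3K, was at 3119, 4192 and 9407, and SFN, the 14-3-3σ protein of epithelial cells, at 664, 1103 and 2838. The levels of HMOX1, which degrades heme, and VEGFA, the endothelial growth factor, were 698, 857 and 1723 and 151, 237 and 476. KCTD11, an adaptor of ubiquitin ligases that damps Hedgehog signaling, was at 46.3, 74.9 and 358, 4.79-fold (3.86 to 5.97) apart between the doses. ETS2 and HDAC7, a transcription factor and a deacetylase, were at 516, 802 and 1810.0 and 2353, 2357 and 4900.2. In these named genes the library at 5 ng/mL stood apart from both others.

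The inflammatory list split within the step. Of 14 genes of chemokines and inflammation at the minimum level, 4 were at least 1.5-fold higher, namely NFKB2, PTGES, IL11 and RELB, the partner of p52, which was at 205, 422 and 636. In contrast, 5 were at least 1.5-fold lower, all of which had been lower at 1 than at 0 ng/mL as well. CXCL5, which attracts neutrophils, was at 7366, 2550.3 and 849, a fall of 3.0-fold (2.79 to 3.23), and CXCL1 was at 813, 249 and 113. TNFAIP2, a target of NF-κB, was at 2689, 657 and 288. CXCL16 and the complement protein C3 were at 305, 156 and 86.2 and 716, 153 and 87.1. For the whole list the median log2 difference was -0.42, but it was 0.35 when the minimum level was raised to an ND value of 8.

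Immediate early genes did not share 1 direction. JUN and JUNB, subunits of AP-1, were at 283, 459.6 and 886 and 429, 721 and 938, differences of 1.93-fold and 1.3-fold. JUND was at 596, 326 and 492, lower at 1 ng/mL than at both other doses. DUSP1, a phosphatase of MAP kinases, went the other way, at 397, 587 and 361. Of the 9 genes of this list at the minimum level, 3 were at least 1.5-fold higher and 1 at least 1.5-fold lower.

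Sequences before the annotated gene starts were searched for the letters that AP-1 binds, TGANTCA, which read the same on both strands. RefSeq windows of 300 bases, from 250 bases before to 50 bases after each annotated start on GRCh38.p14, were found for 73 of the 104 genes that were at least 2-fold higher. The letters occurred in at least 1 window of 10 of these 73 genes (13.7%), of 8 of 93 matched genes that were at least 2-fold lower (8.6%) and of 350 of all 5327 matched genes at the minimum level (6.57%). Among the genes that kept rising it was 16 of 105 (15.2%), and among those that rose and were level 28 of 332 (8.43%). Of the 4 other motifs searched on both strands, CACCTG, a box bound by SNAI and ZEB factors, was in the windows of 35.2% of the genes that kept rising, 25.3% of the level ones, 22.1% of all and 21.5% of those at least 2-fold lower. The others were CAGACA, found for 23.8%, 20.5%, 16.5% and 26.9% of the same groups, GGAATG, for 16.2%, 14.8%, 14.3% and 12.9%, and TGACNNNGC, for 13.3%, 21.1%, 19.8% and 18.3%. Among the genes at least 2-fold higher, the shares for these 4 motifs, in the order given, were 27.4%, 20.5%, 16.4% and 16.4%. A match is only a run of letters and was not tested as a binding site. The 5 stretches below are shown as examples of the AP-1 letters (in capitals) at genes that were at least 2-fold higher at 5 ng/mL, each written 5′ to 3′ on the strand of its gene.
ITGA5, chr12:54419249-54419289, minus strand: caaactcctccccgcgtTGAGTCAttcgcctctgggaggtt
KCTD11, chr17:7351966-7352006, plus strand: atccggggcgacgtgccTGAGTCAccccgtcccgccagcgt
SFN, chr1:26862962-26863002, plus strand: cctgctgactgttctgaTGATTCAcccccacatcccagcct
TNFAIP6, chr2:151357446-151357486, plus strand: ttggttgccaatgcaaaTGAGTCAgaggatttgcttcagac
LUCAT1, chr5:91314431-91314471, minus strand: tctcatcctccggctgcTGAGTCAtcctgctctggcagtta
At ITGA5 the letters begin 6 bases before the annotated start, at LUCAT1 52 bases and at KCTD11 179 bases. TNFAIP6, a hyaluronan-binding protein induced by inflammation, was at 16.2, 92.8 and 222, and LUCAT1, a long noncoding RNA, at 54.5, 80.4 and 178.

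The genes of the TGF-β pathway itself moved in both directions. Of 14 genes of ligands, receptors and latency proteins at the minimum level, 4 were at least 1.5-fold higher and 2 at least 1.5-fold lower. TGFBR1, the type I receptor, was at 177, 705 and 1282, 1.82-fold (1.68 to 1.97) higher at the second step, whereas TGFBR2, the type II receptor, was at 395, 197 and 112, 1.77-fold (1.43 to 2.2) lower. Among the ligands, INHBA, the chain of activin A, was at 9.27, 314 and 572, BMP2 at 38.2, 242 and 418 and TGFB1 itself at 107, 569 and 678. TGFB2 was at 828, 1593 and 1038, highest at 1 ng/mL. LTBP1, which holds latent TGF-β in the matrix, was at 241, 177 and 358, and LTBP3 was level at 512, 3132 and 3022.

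Feedback genes of the pathway differed by moderate ratios. PMEPA1, an inhibitor of SMAD signaling and the most abundant of the list, was level between the doses at 3579, 16338 and 17947. The ubiquitin ligases SMURF1 and SMURF2 were at 110.1, 102 and 198 and 67.2, 81.1 and 135, differences of 1.93-fold and 1.67-fold with little before them. SKIL, a repressor of SMAD targets, was at 217, 360 and 545. The inhibitors of differentiation ID1, ID2 and ID3, which are targets of BMP signaling, were lower at 5 than at 1 ng/mL, at 2295, 1024 and 851, at 1132, 1624 and 1021 and at 1626, 1799 and 874. ID3 fell 2.06-fold (1.91 to 2.22). In total, 3 of 14 genes were at least 1.5-fold higher and 2 at least 1.5-fold lower.

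Several genes of detoxifying enzymes kept falling. AKR1B10, an aldo-keto reductase that reduces retinal and lipid aldehydes, was at 6352, 273 and 74.4, a further fall of 3.68-fold (2.89 to 4.72). AKR1C1 and AKR1C2, which reduce steroid hormones, were at 5397, 249 and 69.9 and 19049.7, 2301 and 733, 3.57-fold and 3.14-fold lower at 5 than at 1 ng/mL. Their sequences are close to each other, so reads may have been split between them. ALDH3A1 was at 4659.9, 162 and 105 and ALDH1A1 at 17467, 12558 and 7068, aldehyde dehydrogenases that both were lower at each dose. The transporter of conjugates ABCC2 was at 717, 189 and 95.3. NQO1, another target of the factor NRF2, was at 7790.4, 2449 and 1687, lower at each dose, whereas TXNRD1 and PRDX1 of the thioredoxin system were at 2185, 319 and 367 and 5474, 8919 and 11618. Of 30 genes of this list at the minimum level, 8 were at least 1.5-fold lower and 1, HMOX1, was at least 1.5-fold higher, and 23 of the 30 lay below equality, with a median log2 difference of -0.19.

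Genes of actin-binding and adhesion proteins moved in opposite directions. TMSB4X, thymosin β4, which sequesters actin monomers, was at 7421, 688 and 112, 6.17-fold (5.11 to 7.5) lower at 5 than at 1 ng/mL. PFN1, profilin 1, which feeds monomers to growing filaments, was at 2044, 459 and 83.5, a fall of 5.5-fold (4.42 to 6.91), and its relative PFN2 was at 867, 313 and 152. COTL1, which binds filamentous actin, was at 1203, 286 and 127. On the other side, TPM1, a tropomyosin, was at 3642, 16777 and 33013, 1.97-fold higher, and TLN1, talin, at 1580.3, 1538 and 2602. PALLD, palladin, was at 974, 1374 and 2279, and CDH2, the neuronal cadherin of mesenchymal cells, at 650, 1592 and 2445. Of 18 genes of mesenchymal surface and cytoskeleton at the minimum level, 4 were at least 1.5-fold higher and 2 at least 1.5-fold lower. TMSB4X and PFN1 were also lower at 5 than at 1 ng/mL in BEAS-2B cells, with log2 differences of -0.57 and -0.89.

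Epithelial junction genes split evenly between the doses, with 6 of 12 above and 6 below equality and a median log2 difference of 0.07. Some genes of epithelial cells that had fallen at 1 ng/mL fell further at 5 ng/mL. ELF3, an epithelial transcription factor, was at 1328, 292 and 106, 2.75-fold (2.24 to 3.4) lower at the second step, and CLDN1, a tight junction claudin, at 319, 149.8 and 66.2. CD9, AREG, IL18 and GPX2 met the minimum level only at 0 ng/mL, so they lie outside the 6467 genes compared between the doses. CD9, a tetraspanin, was at 964, 35.0 and 4.54, AREG, a ligand of the EGF receptor, at 367, 96.9 and 10.9, and IL18 at 373, 29.5 and 4.54, values near the detection limit at 5 ng/mL. GPX2, a glutathione peroxidase of epithelia, was at 1127, 15.1 and 1.81. F11R, a junctional adhesion molecule, was the only one of 12 epithelial junction genes at least 1.5-fold higher, at 423, 287 and 463. The 2 of this list that were at least 1.5-fold lower were ELF3 and CLDN1. Just 1 of 28 secretory and mucous genes, FOXA2, reached the minimum level, at 790.2, 420.5 and 350.2. The mucin MUC5AC had fallen from 462 to 4.12 at 1 ng/mL and was not detected at 5 ng/mL, where a count of 0 allows up to 3 counts. By contrast STEAP1, UGT1A3 and PTGS2 had fallen at 1 ng/mL and were level, at 294, 18.6 and 18.1, 1754, 144 and 137 and 993, 137 and 119. STEAP1 was below the minimum level at both doses.

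A few metabolic genes also fell further. PDK4, which restrains the entry of pyruvate into the citrate cycle, was at 4066, 643 and 151, a step of 4.27-fold (3.62 to 5.07), and HKDC1, a hexokinase, at 765, 170.4 and 40.8. CPS1, the first enzyme of the urea cycle, was at 2207, 267 and 112. IGFBP3, a carrier of insulin-like growth factors, was at 1901, 295 and 97.98, 3.02-fold (2.44 to 3.76) lower at 5 than at 1 ng/mL. CAPN12, a calpain, was at 7851, 2594 and 609.7, the most abundant of the genes that fell by over 4-fold. For MYRF and CYB5A, a membrane-bound transcription factor and cytochrome b5, the normalized counts were 434, 184 and 47.2 and 1452, 188 and 57.2.

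Genes of cholesterol synthesis were lower at the higher dose more often than higher. Of 27 genes of cholesterol and fatty acid synthesis at the minimum level, 5 (18.5%) were at least 1.5-fold lower and 0 at least 1.5-fold higher, against 8.43% and 8.4% of all genes, and 23 of the 27 lay below equality. TM7SF2 and DHCR7, sterol reductases, were at 265, 244 and 114 and 463, 446 and 243, 2.13-fold and 1.83-fold lower at 5 than at 1 ng/mL. ELOVL6, an elongase of fatty acids, was at 256, 205 and 114. The abundant enzymes FASN and ACLY differed by less than 0.32 on the log2 scale between the doses, at 1932, 2673 and 2580.3 and 6095, 8021 and 7705. The list had a median log2 difference of -0.16, against -0.08 for BEAS-2B cells.

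For 76 genes the level was at least 2-fold lower at 5 than at 1 ng/mL, with under 2-fold between 0 and 1 ng/mL. At 5 ng/mL, 64 of the 76 were at least 2-fold below 0 ng/mL, and 7 were within 1.5-fold of it. Genes of ribosomal proteins were among the 76. Of 77 ribosomal protein genes at the minimum level, 17 (22.1%) were at least 1.5-fold lower and 0 higher at 5 ng/mL, against 8.43% and 8.4% of all genes, and 60 of the 77 lay below equality. RPS29 was at 19178, 16354 and 6939.7, 2.36-fold (2.3 to 2.42) lower at the second step, and RPL34 at 4994, 3152 and 1346, 2.34-fold (2.21 to 2.48). RPS15A, RPL4 and RPL10A were at 3924, 2954 and 1334, at 7291, 3858 and 1859.9 and at 5469, 4531 and 2193. Not all went down, since RPS27A and RPL27A were at 27172, 52886 and 67346 and 17449.7, 32456 and 42014, 1.27-fold and 1.29-fold higher. The summed normalized counts of the 78 genes of the list were highest at 1 ng/mL, and ribosomal protein genes took 10.9%, 14.3% and 12.3% of all counts at 0, 1 and 5 ng/mL. Over the 77 genes the median log2 difference was -0.24. For BEAS-2B cells it was -0.20, with 11 of 77 genes at least 1.5-fold lower and 0 higher. Over all genes compared in BEAS-2B cells, these shares were 4.85% and 4.17%.

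Noncoding RNAs that host small nucleolar RNAs (snoRNAs) in their introns were often lower as well. SNHG5 was at 1645, 1370.0 and 679.5, 2.02-fold (1.85 to 2.2) lower at 5 than at 1 ng/mL, ZFAS1 at 1482, 535 and 267 and SNHG7 at 559.6, 181 and 90.7. SNHG8 and SNHG6 were at 701, 572 and 286 and 1702, 1040.2 and 614. GAS5 was at 520.2, 1055 and 686 and SNHG12 at 98.5, 209 and 132, which both had risen at 1 ng/mL. MALAT1, a nuclear RNA without this role and the most abundant of the list, was at 56222, 30350.3 and 22772. Of 15 RNAs of the list at the minimum level, 7 (46.7%) were at least 1.5-fold lower and 0 higher, against 8.43% and 8.4% of all genes, while 4 of the 15 lay above equality. In BEAS-2B cells 6 of 16 were at least 1.5-fold lower, against 4.85% of all genes. The translation elongation factor EEF1A1 was at 8657, 2118 and 894, and like many ribosomal protein genes it has close copies in the genome that could take or give reads.

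The mRNAs of ribosomal proteins typically begin with a C and a run of pyrimidines, a 5′ terminal oligopyrimidine (TOP) start, through which their translation is coordinated, and several snoRNA hosts begin likewise. An annotated start with a C followed by at least 4 pyrimidines was found for 46 of 61 ribosomal protein genes with a RefSeq window (75.4%) and for 477 of all 5327 genes (8.95%). Of the 12 matched ribosomal protein genes that were at least 1.5-fold lower it was 7 (58.3%), and of 6 such snoRNA hosts 3 (50%). Over the whole list of long noncoding and snoRNA host RNAs it was 3 of 13 (23.1%). Such a start was found for 16 of 93 genes that were at least 2-fold lower (17.2%) and 5 of 73 that were at least 2-fold higher (6.85%). For genes that kept falling it was 16 of 244 (6.56%), and for those that kept rising 8 of 105 (7.62%). The starts below are shown because ribosomal protein genes and snoRNA hosts at least 1.5-fold lower at 5 ng/mL both include such letters. Each stretch runs from 10 bases before the annotated start to 30 bases from it, 5′ to 3′ on the strand of its gene on GRCh38.p14, with the pyrimidine run from the start in capitals.
RPL34, chr4:108620566-108620605, plus strand: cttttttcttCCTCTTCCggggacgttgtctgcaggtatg
RPL35A, chr3:197950180-197950219, plus strand: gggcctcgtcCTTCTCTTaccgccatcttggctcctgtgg
RPL7A, chr9:133348208-133348247, plus strand: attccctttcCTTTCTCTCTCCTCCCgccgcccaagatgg
RPS6, chr9:19380207-19380246, minus strand: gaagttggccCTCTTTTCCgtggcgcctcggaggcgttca
SNHG5, chr6:85678704-85678743, minus strand: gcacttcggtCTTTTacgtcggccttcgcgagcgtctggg
ZFAS1, chr20:49278632-49278671, plus strand: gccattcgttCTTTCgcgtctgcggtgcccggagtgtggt
SNHG12, chr1:28581844-28581883, minus strand: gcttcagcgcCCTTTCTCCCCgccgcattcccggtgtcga
RPL35A, RPL7A and RPS6 were at 5294, 5502 and 2798, at 7451, 6777 and 3649.9 and at 16011, 20207 and 11432. The starts of the counted mRNAs were not measured here, since the libraries read 3′ ends. Ribosomal protein mRNAs are short, and the genes that were at least 2-fold lower had a median transcript length of 1290 bases against 1665 for all genes and 1666 for those that were higher. With the trend over transcript length removed, the median log2 difference of the ribosomal protein genes was -0.20 and that of the snoRNA hosts -0.43. That setting was added after the data were seen, and the part of transcript length in these values was not tested.

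The respiratory chain list lay slightly below equality. Of 59 nuclear-encoded subunits at the minimum level, 8 (13.6%) were at least 1.5-fold lower and 1 (1.69%) at least 1.5-fold higher, against 8.43% and 8.4% of all genes, and 37 lay below equality and 22 above it. NDUFC1, NDUFB1 and NDUFA4, of which NDUFC1 and NDUFB1 belong to complex I, were at 529.5, 221 and 104, at 1188, 906 and 472 and at 2193, 1529 and 811. ATP5C1, a subunit of the ATP synthase, was at 1079, 385 and 209.6. The list's median log2 difference was -0.13, against -0.23 for BEAS-2B cells.

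Within the proteasome, 1 subunit fell and 1 rose by more than 3-fold, while the others differed by less than 2-fold. PSMB3, a β subunit of the core, was at 328, 253 and 44.5, 5.69-fold (4.21 to 7.83) lower at 5 than at 1 ng/mL, and PSMD14 was 3.25-fold (2.93 to 3.6) higher. For 29 subunits the median log2 difference was -0.08, with 3 at least 1.5-fold higher and 2 at least 1.5-fold lower. PSMB6 and PSMA7, the most abundant with their levels at 2482, 4503 and 5007 and 3125, 3459 and 2988, were near equality.

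Stress and secretory genes showed no common direction. In the ATF4 list, 4 of 19 genes were at least 1.5-fold lower and 2 at least 1.5-fold higher. CEBPB, a transcription factor, was at 1034, 412 and 228, and DDIT3, the proapoptotic factor CHOP, at 304, 328 and 186. PSAT1, an enzyme of serine synthesis, was at 706, 238 and 135, whereas PYCR1, of proline synthesis, was at 498, 658 and 1029. HSPA5 and CANX, chaperones of the endoplasmic reticulum, were at 5543, 8368 and 12564 and 6711, 6838 and 10979, while SEC61B and TRAM1 of the translocation pore were lower at each dose, at 889, 242 and 132 and 2171, 534 and 297.

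Proliferation genes gave no common direction. Of 38 genes of DNA replication and mitosis at the minimum level, 7 (18.4%) were at least 1.5-fold higher and 3 (7.89%) at least 1.5-fold lower, against 8.4% and 8.43% of all genes, and 21 lay above equality and 17 below it. Higher were CCNB1, the B1 cyclin, at 569, 438 and 722, PLK1, a mitotic kinase, at 611, 1068 and 1689, KIF11, a spindle motor, at 119, 133 and 237, and TOP2A, a topoisomerase, at 7088, 10959 and 16731. Also higher were MCM5, of the replicative helicase, at 152, 329.8 and 529.8, RFC3, of the clamp loader, at 198, 195 and 298, and E2F1, a transcription factor of S-phase genes, at 115, 205 and 313. Lower were PCNA, the sliding clamp, at 922, 599 and 339, FEN1, a nuclease, at 648, 443 and 246 and GINS2, another helicase component, at 129, 201 and 123. The proliferation marker MKI67 was at 1401, 1791 and 1879, and CDKN1A, the inhibitor p21, at 710.2, 1501 and 2064.

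**Figure D4:**
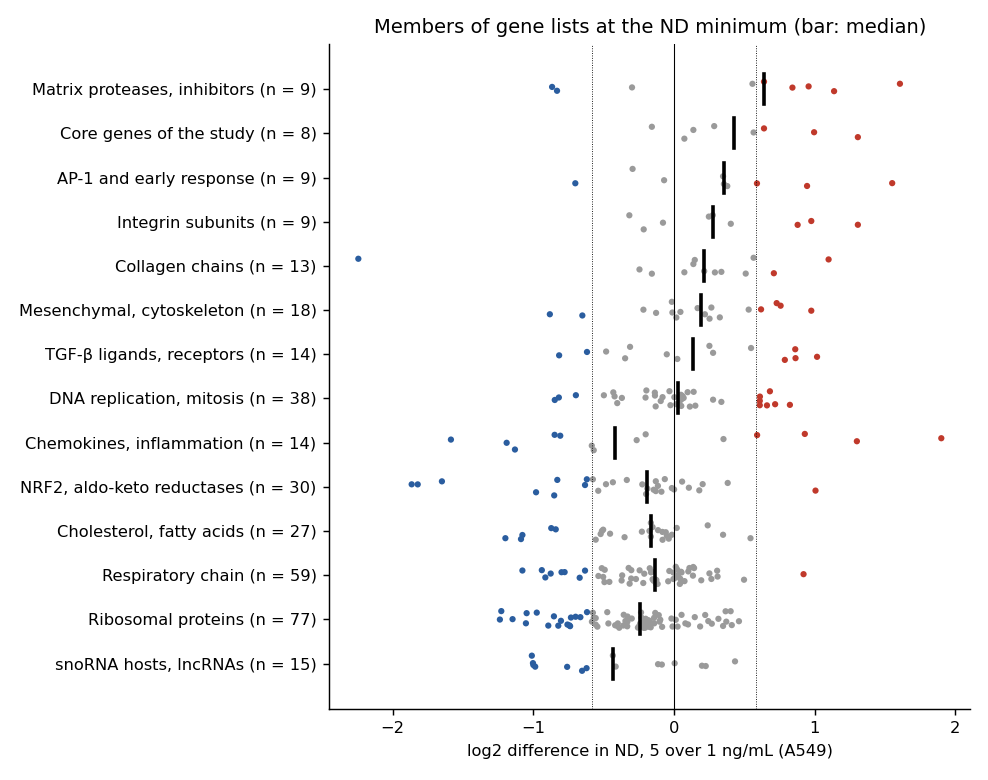
Log2 difference of 5 over 1 ng/mL in A549 cells for the members of 14 gene lists at the minimum level (1 point per gene, vertical jitter only), with the median as a black bar and the 1.5-fold limits dotted. Red genes are at least 1.5-fold higher and blue genes at least 1.5-fold lower. The median is 0.64 for matrix proteases and inhibitors and -0.43 for snoRNA hosts and long noncoding RNAs, and no ribosomal protein gene is red.

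The same step was read in BEAS-2B cells, where 6306 genes reached the minimum level and 263 (4.17%) were at least 1.5-fold higher and 306 (4.85%) at least 1.5-fold lower at 5 than at 1 ng/mL. Over the 5463 genes at the minimum level in both lines, the log2 differences correlated with a Pearson r of 0.34 and a Spearman rho of 0.34, as a description across genes, which are not independent and share their length and base composition between the lines. Of the 104 genes that were at least 2-fold higher in A549 cells, 74 were at the minimum level in BEAS-2B cells, where 55 were higher and 4 (5.41%) at least 1.5-fold higher. Of the 116 lower genes, 63 were at the minimum level, 51 were lower and 22 (34.9%) at least 1.5-fold lower. The genes lower in both lines included PFN1, RPL4, RPL10A, RPS15A, SNHG5 and ZFAS1, and ID3, with BEAS-2B normalized counts of 496, 222 and 122.

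Several genes that rose further in A549 cells were level between the doses in BEAS-2B cells. ANGPTL4 was at 13.4, 1458 and 1731 there, PDGFB at 73.6, 699.9 and 654 and ITGA5 at 359, 1259 and 1088. IER3 was nearly equal at both doses in BEAS-2B cells, at 6370.0, 21001 and 20949. FAM43A continued upward in both lines, with 26.8, 77.6 and 147 in BEAS-2B cells, and among the 74 genes at the minimum level there, SPDL1, UBE2Z and EDARADD were the others at least 1.5-fold higher. NFKB2 and AKT2 were nearly equal at both doses in BEAS-2B cells, at 1372, 1176 and 1118 and 4118, 3911 and 3624. The difference between the lines was not tested for any gene.

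**Figure D5:**
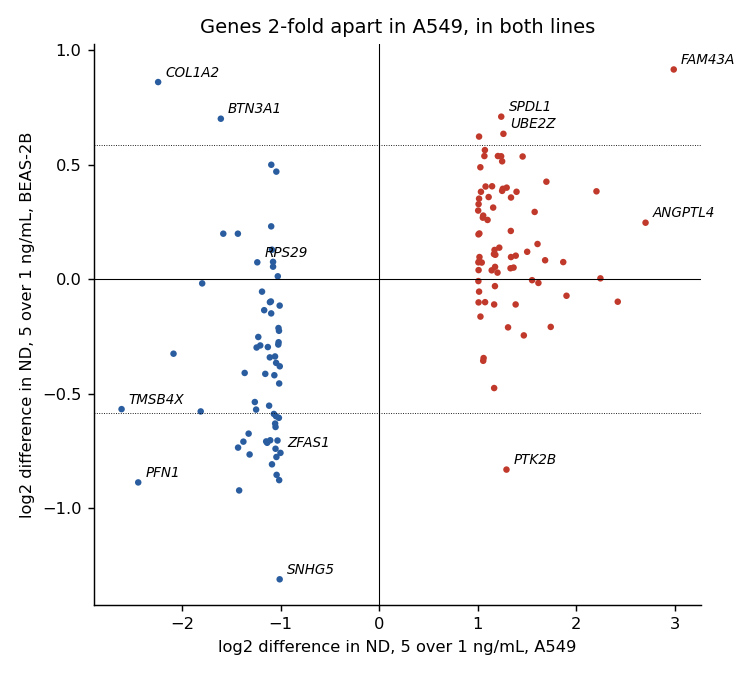
Log2 difference of 5 over 1 ng/mL in BEAS-2B cells (vertical axis) against A549 cells (horizontal axis) for the 137 genes at least 2-fold apart in A549 cells and at the minimum level in BEAS-2B cells. Dotted lines mark 1.5-fold in BEAS-2B cells. Of the 63 blue genes, lower in A549 cells, 51 lie below 0 and 22 below the lower dotted line, while of the 74 red genes 55 lie above 0 and 4 above the upper dotted line.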

How the data were processed

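The authors deposited raw read counts per gene symbol for 6 QuantSeq 3′ libraries, 1 for each of 2 cell lines at 0, 1 and 5 ng/mL TGF-β1. The paper names ExDEGA, and the submitters' processing notes list Bowtie2, bedtools and hg19 without roles. Whether counting used strand is not given in the sources used here. Symbols with several entries were kept apart. Counts were scaled by TMM (edgeR 4.0.16, R 4.3.3) over 6 libraries to the mean effective size of 5131352. Log2 differences carry a pseudocount of 1, and printed ratios do not. Intervals are exact (Clopper-Pearson). With 1 library per condition, no test was run. Named were the 15 largest rises and falls, 5 genes per class, list members past 1.5-fold or among the 4 with most counts, 8 core genes, and genes opposite in BEAS-2B cells, and other genes in the text were picked with their values in view. Some genes that these rules name are not reported here. The classes, the 36 gene lists and these rules were chosen with earlier results of these data known. The steps were tested on simulated data. Promoter windows came from RefSeq (GRCh38.p14), with up to 12 per gene (an NF-κB motif was searched at first and is not reported here), and transcript length and GC content from GENCODE, with values for 96.1% of genes. In total, 20 alternative settings were planned and 1, removal of the length trend, was added after seeing the data. Python 3.11.15 with pandas 2.3.3 and scipy 1.17.1 was used.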

Additional observations from a re-analysis of the deposited data

Results flagged for a closer look

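Among the 137 genes at least 2-fold apart between the doses in A549 cells and at the minimum level in BEAS-2B cells, 3 were at least 1.5-fold apart in the opposite direction in BEAS-2B cells. COL1A2, with a log2 difference of -2.24 in A549 cells, had 0.86 in BEAS-2B cells, where its normalized counts were 22.3, 76.5 and 139.8. BTN3A1 had -1.61 against 0.70 for BEAS-2B cells, at 302, 141 and 229. PTK2B, a kinase related to focal adhesion kinase, had 1.29 in A549 cells, at 129.8, 101 and 249, and -0.83 in BEAS-2B cells, at 325, 182.3 and 102. With 1 library per condition, these differences between the lines were not tested.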

How the results depend on the processing

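The counts of genes higher and lower at 5 ng/mL and of each class were within 1.5 times of the reported ones under every scaling other than total counts, both pseudocounts, the filter on 10 counts, thinning to the smallest total, summing entries per symbol and removal of the GC and length trends. Settings that change how many genes are compared, or the fold limits, moved them by construction. Scaled by total counts, 80 genes were rising slightly further and 36 turning back after a rise. With the minimum required in every library compared, 64 genes were higher, 42 lower, 54 rising on, 69 rising slightly further, 222 level after a rise, 30 falling slightly back, 14 turning back after a rise, 51 falling on, 61 falling slightly further, 123 level after a fall, 15 rising slightly back, 8 turning back after a fall, 29 apart upward at 5 ng/mL and 22 apart downward at 5 ng/mL. With the minimum on the mean level, 34 genes were turning back after a rise, 181 falling on, 114 falling slightly further, 199 level after a fall and 27 turning back after a fall. At an ND minimum of 6, 234 genes were lower, 91 turning back after a rise, 79 rising slightly back, 87 turning back after a fall, 76 apart upward at 5 ng/mL and 155 apart downward at 5 ng/mL. At an ND minimum of 8, 54 genes were lower, 42 falling slightly back, 18 turning back after a rise, 189 falling on, 107 falling slightly further, 180 level after a fall, 23 rising slightly back, 19 turning back after a fall, 33 apart upward at 5 ng/mL and 39 apart downward at 5 ng/mL. With log2(CPM + 1) of at least 7 as the minimum, 41 genes were higher, 16 lower, 59 rising on, 56 rising slightly further, 131 level after a rise, 17 falling slightly back, 3 turning back after a rise, 88 falling on, 46 falling slightly further, 68 level after a fall, 6 rising slightly back, 5 turning back after a fall, 19 apart upward at 5 ng/mL and 13 apart downward at 5 ng/mL. At a limit of 1.5-fold, 543 genes were higher and 545 lower. At a limit of 3-fold, 15 genes were higher and 21 lower. With the response to 1 ng/mL taken from 1.5-fold, 227 genes were rising on, 310 rising slightly further, 1004 level after a rise, 147 falling slightly back, 104 turning back after a rise, 285 falling slightly further, 632 level after a fall, 103 rising slightly back and 38 apart downward at 5 ng/mL. With 2-fold between the doses for keeping on and turning back, 43 genes were rising on, 238 rising slightly further, 123 falling slightly back, 9 turning back after a rise, 153 falling on, 333 falling slightly further, 80 rising slightly back and 15 turning back after a fall. The median log2 difference changed sign under at least 1 setting for 14 lists. For 7 of them (collagen processing, matrix glycoproteins, DNA replication and mitosis, ER chaperones, histones, proteasome, and interferon and MHC class I genes) it lay within 0.1 of 0. For the other 7 it changed with the genes compared: with the minimum required in every library compared it became -0.066 for TGF-β feedback genes and 0.044 for chemokines and inflammation, at an ND minimum of 8 it became -0.27 for TGF-β feedback genes, 0.35 for chemokines and inflammation and 0.025 for glycolysis and hypoxia and with log2(CPM + 1) of at least 7 as the minimum it became -0.15 for integrins, -0.31 for TGF-β feedback genes, -0.051 for TGF-β ligands and receptors, -0.057 for cornified envelope genes, 0.93 for chemokines and inflammation, 0.17 for acute phase and complement and 0.053 for glycolysis and hypoxia. A set of 209 genes was followed through the settings. Among these, only STEAP1, UGT1A3, COL5A1 and IGFL1, which were level between the doses, changed sign under a scaling, thinning or trend setting. Other genes named in the text were not followed. Across scalings, the median log2 difference of all genes ranged from -0.03 to 0.06. No paired analysis was possible because each condition had 1 library, and no library could be left out. Classes could not be formed with TMM over the 2 treated libraries alone. The depth limits ratios of genes under the minimum level, and the spread between cultures is unknown for every value.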

Other observations

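Smaller gene groups not described above gave these values. Of 17 targets of YAP and TEAD at the minimum level, 1 was at least 1.5-fold higher (CTGF) and 2 at least 1.5-fold lower (IGFBP3 and TGFB2), with a median log2 difference of 0.24. Among 6 transcription factors of epithelial-mesenchymal transition, SOX4 was at 2582, 6256 and 6062 and HMGA2 at 198, 447 and 384, and 1, ETS2, was at least 1.5-fold higher. For metallothioneins and S100 proteins, 0 of 8 genes were past 1.5-fold in either direction, with MT2A at 4245, 23080.0 and 23427. Of 13 genes of the interferon response and MHC class I, 1 was at least 1.5-fold lower, HLA-B, at 378, 258 and 162. Of 25 glycolysis and hypoxia-linked genes, 3 were at least 1.5-fold higher (ANGPTL4, VEGFA and ENO2) and 2 lower (PFKFB3 and SLC2A1), and LDHA was at 12103, 13454 and 9249.

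A pair of small Cajal body RNAs, which guide the modification of spliceosomal RNAs, were among the genes at least 2-fold higher at 5 ng/mL. SCARNA22 was at 127, 72.8 and 165 and SCARNA9 at 394, 462 and 942. They were noticed after the values were seen and lie within longer genes, whose reads cannot be told apart from theirs.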
